A study of Mus musculus with 8 samples.

Results

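Protocadherins are the largest branch of the cadherin family of cell adhesion proteins. They were taken here as the protein-coding genes whose names begin with Pcdh, which gave 64 of the 13996 genes measured in the mouse brain cortex, 12531 of which are mRNAs. These 64 comprised 12 genes of the alpha cluster, 20 of the beta cluster, 21 of the gamma cluster and 11 nonclustered genes. All 64 passed the filter on low values, a mean of at least 1 FPKM (a level corrected for transcript length and sequencing depth) with no 0 in any mouse. Another gene of the gamma cluster, Pcdhgb8, is annotated as a polymorphic pseudogene and was not counted.

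The cortexes came from male C57BL/6 mice that arrived at 8 weeks of age and were 16 weeks old when sampled. For the 8 weeks between, 4 mice ate a conventional diet (normal) and 4 mice ate a diet with 60% fat by weight (high fat diet, HFD). No transgene or drug treatment is named, and the groups differed by diet alone as far as the labels say. Per the study's methods, the mice were killed under ether anesthesia. RNA freed of ribosomal RNA was sequenced as 1 stranded library per mouse, so the spread between mice includes biological and technical variation.

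In the clusters, each gene has a large first exon with a promoter of its own, which encodes the outer domains and the membrane passage. In the alpha and gamma clusters this exon is spliced to constant exons shared by the whole cluster, while beta genes have no constant exons. Single neurons choose a few of these promoters at random, apart from the C-type genes at the cluster ends, which many neurons use, and the combination on the surface lets a neuron tell its own branches from those of others. Promoter choice depends on the insulator protein CTCF, on cohesin and on DNA methylation. Nonclustered protocadherins are single genes scattered over the genome, and most belong to the delta1 and delta2 classes, which differ in the conserved motifs of their cytoplasmic tails and act in axon growth, synapse formation and synapse loss.

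The stretches of 250 bases before the transcription start are shown for the 4 nonclustered genes with a large change whose promoters the reference table holds, so that their base composition and motifs can be compared. They were taken from RefSeq on GRCm38.p6 and are written 5′ to 3′ on the strand of the gene. Capitals mark each match to CGCT, the core of the element shared by clustered protocadherin promoters, and to TATAA, in either orientation. Where matches touch or overlap, the capitals run together. Pcdh20 lies at chr14:88471397-88471646 on the minus strand, Pcdh15 at chr10:73821617-73821866 on the plus strand, Pcdh19 at chrX:133688994-133689243 on the minus strand and Pcdh8 at chr14:79771313-79771562 on the minus strand.
Pcdh20: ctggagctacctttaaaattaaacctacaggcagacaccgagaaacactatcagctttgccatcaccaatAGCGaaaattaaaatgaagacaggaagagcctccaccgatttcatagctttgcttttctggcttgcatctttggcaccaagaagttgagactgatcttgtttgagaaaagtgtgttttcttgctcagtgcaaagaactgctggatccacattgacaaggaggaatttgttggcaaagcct
Pcdh15: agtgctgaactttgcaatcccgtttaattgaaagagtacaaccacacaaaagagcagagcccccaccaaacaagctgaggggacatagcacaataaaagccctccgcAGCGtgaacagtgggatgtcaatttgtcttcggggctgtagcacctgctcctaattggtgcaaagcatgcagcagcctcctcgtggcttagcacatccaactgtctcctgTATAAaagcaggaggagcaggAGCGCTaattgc
Pcdh19: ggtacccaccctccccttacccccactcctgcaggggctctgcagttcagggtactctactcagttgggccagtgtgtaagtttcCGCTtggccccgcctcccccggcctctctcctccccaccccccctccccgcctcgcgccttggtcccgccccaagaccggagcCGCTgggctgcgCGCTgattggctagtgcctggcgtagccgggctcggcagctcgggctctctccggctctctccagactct
Pcdh8: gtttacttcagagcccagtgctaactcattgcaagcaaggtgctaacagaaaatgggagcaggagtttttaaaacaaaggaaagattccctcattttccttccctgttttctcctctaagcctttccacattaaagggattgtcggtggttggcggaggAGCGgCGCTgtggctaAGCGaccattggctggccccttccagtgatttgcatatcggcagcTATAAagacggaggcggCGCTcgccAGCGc

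The 4 windows differed in composition. Pcdh20, the gene that fell most, had the lowest share of G and C (42.4%) and Pcdh19 the highest (69.2%), with 50.4% in Pcdh15 and 51.2% in Pcdh8, against a median of 52.0% over 27025 promoters of the same length. CGCT was found once in Pcdh20, 3 times each in Pcdh15 and Pcdh19 and 5 times in Pcdh8. Over all promoters, 55.3% held it at least once, with a median of 1 match. TATAA was found in Pcdh15 and Pcdh8, once each, and in 23.5% of all promoters. Of the 9 nonclustered genes with a promoter in the table, Pcdh10 held the most matches to CGCT (8) and Pcdh18 came next (7). The RefSeq start of Pcdh15 lies inside the longer GENCODE M21 gene, which begins at position 73099342 of chromosome 10, so its window belongs to one of several starts. Both motifs are short, and a match is a description of the letters only.

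Some libraries differed in their tissue makeup. Markers of cortical projection neurons were high in every mouse, with a summed level of 309.7 to 460.4 FPKM in normal mice and 505.8 to 596.2 FPKM in HFD mice over 10 of 10 genes. Striatal markers (8 of 10 listed genes measured) summed to 234.9 to 432.7 FPKM in normal mice and 77.5 to 87.4 FPKM in HFD mice. Cerebellar markers (8 of 10 measured) summed to 33.3, 274.0, 368.9 and 90.8 FPKM in normal mice 1 to 4 and to 25.8 to 28.8 FPKM in HFD mice, where the granule cell marker Gabra6 was at most 0.2 FPKM. Oligodendrocyte markers (8 of 8) summed to 2115 to 3487 FPKM in normal mice and 1458 to 2026 FPKM in HFD mice, and choroid plexus markers (5 of 5) ranged from 21 to 940.6 FPKM over all mice. The part of these differences in the protocadherin values was not tested. Diet cannot be told apart from striatal, cortical projection neuron or oligodendrocyte content, because the diets did not overlap in these sums. The summed markers of astrocytes, oligodendrocyte precursors and endothelium did not overlap either, although some single genes of each list did. The cerebellar sums also did not overlap, although normal mouse 1 (33.3 FPKM) lay close to the HFD mice. In such bulk tissue, fewer cells of a type and less RNA per cell give the same reading.

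Of the 64 protocadherins, 16 changed between the diets at an adjusted p below 0.05, 14 upward and 2 downward in HFD mice (limma on log2(FPKM + 0.1), two-sided, p adjusted by Benjamini-Hochberg across the 13982 genes tested). This is 25.0% of the members, compared with 33.1% of all genes tested and 33.2% of mRNAs. By direction, 17.7% of all genes tested were called higher and 15.3% lower. The median log2 fold change was 0.12 over the 64 members and 0.00 over all genes, and 44 of the 64 members had a positive value. A positive value was found for 7068 of the 13982 genes tested and 5979 of the 12519 mRNAs tested. A change of over 50% beside the adjusted p was found for 4 members, compared with 7.13% of all genes. For 15 members the ranges of the 2 diets did not overlap, while 31.9% of all genes showed such separation.

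The calls were unevenly spread over the family. Among the nonclustered genes 8 of 11 changed (72.7%), and the 4 changes of over 50% were all in this group. Of the 53 clustered genes, 8 changed (15.1%) and none by over 50%. The clustered genes were also less abundant, with a median level of 3.35 FPKM compared with 11.5 FPKM for the nonclustered genes. Fewer mRNAs are called at low levels, 26.0% of those under 10 FPKM and 39.5% of those at or above it.

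**Figure D1:**
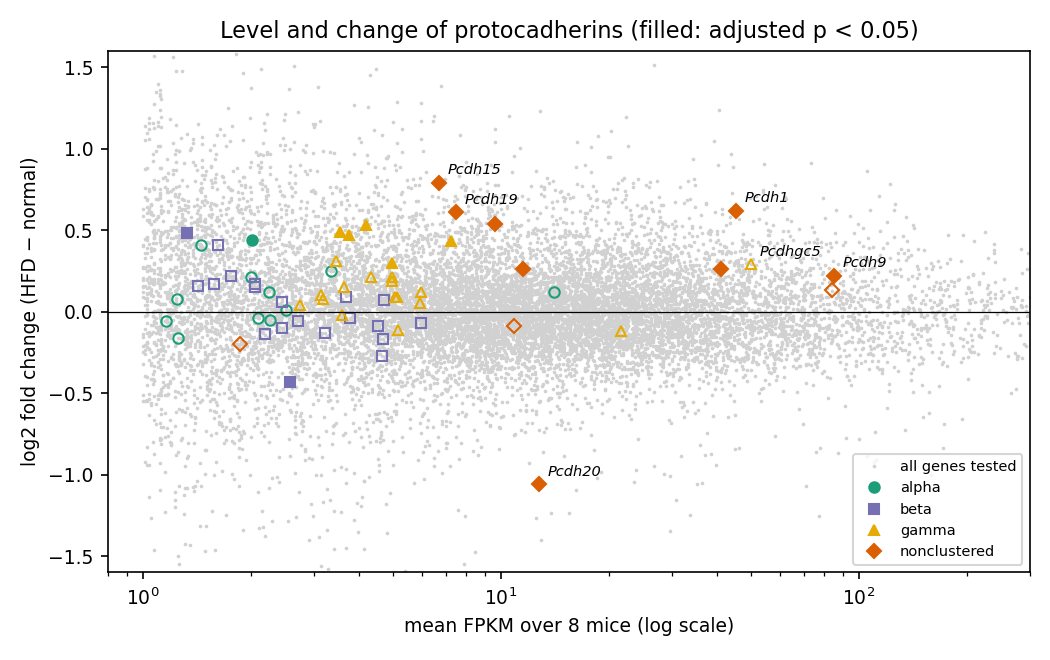
The log2 fold change (HFD minus normal, of FPKM + 0.1) is plotted for each gene against its mean FPKM over the 8 mice on a log axis, with genes beyond the axis limits left out. Grey dots are all genes tested, coloured symbols are the protocadherins, and filled symbols have an adjusted p below 0.05. Filled nonclustered symbols reach from 0.79 (Pcdh15) to -1.06 (Pcdh20), and clustered symbols stay between -0.43 and 0.53.

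Pcdh20, an adhesion molecule known from layer 4 neurons of sensory cortex, showed the largest change of the family and was its only nonclustered member that fell. Its level was 18.4, 15.3, 14.3 and 21.3 FPKM in normal mice 1 to 4 and 9.4, 9.3, 6.8 and 7.4 FPKM in HFD mice 1 to 4. The lowest normal mouse lay well above the highest HFD mouse. The mean dropped from 17.3 ± 3.17 to 8.23 ± 1.32 FPKM (SD, n = 4 each), a log2 fold change of -1.06 ± 0.14 (SE) with an adjusted p of 0.0012 in limma. The gene lies on chromosome 14 from 88464743 to 88471396 (GRCm38).

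Pcdh15, the tip link protein of sensory hair cells that is mutated in Usher syndrome, had the largest rise and the smallest adjusted p. Its level was 5.0, 4.8, 4.6 and 5.1 FPKM in normal mice and 8.8, 8.7, 7.3 and 9.4 FPKM in HFD mice. The normal mice were within 0.5 FPKM of each other and all below the HFD mice. This gave a log2 fold change of 0.79 ± 0.08 (SE, n = 4 each) and an adjusted p of 0.000608 in limma. These genes outside the delta classes thus moved in opposite directions.

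The delta1 class rose as far as its members were called. Pcdh1, known as an adhesion protein of airway epithelium and neurons, was measured at 38.8, 30.5, 30.7 and 43.8 FPKM in normal mice and 54.4, 56.1, 54.6 and 53.3 FPKM in HFD mice. The HFD mice were tightly grouped and above all normal mice, among which mice 2 and 3 were lowest. Its log2 fold change was 0.62 ± 0.11 (SE) with an adjusted p of 0.00327 in limma.

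Pcdh9, a delta1 gene used by many cortical neurons, had the highest mean over all 8 mice (85.1 FPKM), followed by Pcdh7 (84.1 FPKM). In normal mice alone, the mean of Pcdh7 (80.3 FPKM) was above that of Pcdh9 (78.6 FPKM). Pcdh9 was measured at 79.4, 80.3, 79.1 and 75.7 FPKM in normal mice and 89.8, 94.1, 90.9 and 91.7 FPKM in HFD mice. The diets did not overlap although the rise was small, because both groups had an SD near 2 FPKM. The mean was 78.6 ± 2.02 and 91.6 ± 1.82 FPKM (SD, n = 4 each), with a log2 fold change of 0.22 ± 0.04 (SE) and an adjusted p of 0.00329 in limma.

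Pcdh11x, an X-linked delta1 gene, was measured at 11.9, 10.1, 10 and 9.9 FPKM in normal mice and 11.3, 14.1, 12.2 and 12.7 FPKM in HFD mice. Normal mouse 1 lay above HFD mouse 1, so the diets overlapped. Its log2 fold change was 0.26 ± 0.08 (SE) with an adjusted p of 0.0378 in limma. The call was lost without any of 6 single mice (normal 2, 3 and 4 and HFD 2, 3 and 4), with adjusted p up to 0.101. Pcdh7, whose tail binds the phosphatase PP1 and the protein Set, was measured at 85, 74.2, 74.5 and 87.5 FPKM in normal mice and 75.5, 93.1, 94.5 and 88.6 FPKM in HFD mice. These ranges overlapped widely and the adjusted p was 0.258, with a log2 fold change of 0.13 ± 0.08 (SE).

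In the delta2 class, 3 of 5 genes rose. Pcdh19, mutated in an X-linked epilepsy of girls, was measured at 5.5, 5.4, 6.0 and 6.7 FPKM in normal mice and 9.3, 9.7, 7.2 and 10.1 FPKM in HFD mice. HFD mouse 3 came close to the normal range without entering it. Its log2 fold change was 0.61 ± 0.11 (SE) with an adjusted p of 0.00424 in limma. Pcdh8, also called arcadlin, is induced by synaptic activity and takes N-cadherin off the surface. It was measured at 7.2, 7.6, 7.7 and 8.6 FPKM in normal mice and 10, 14.3, 10.8 and 10.7 FPKM in HFD mice, where mouse 2 stood above the rest. Its log2 fold change was 0.54 ± 0.11 (SE) and its adjusted p 0.00565 in limma. Immediate early genes, 7 of 7 measured, summed to 196.8 to 307.2 FPKM in normal mice and 148.4 to 230.2 FPKM in HFD mice, and their part in the value of Pcdh8 was not tested.

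Pcdh10, which binds the WAVE complex through Nckap1 and takes part in synapse elimination, was measured at 39.3, 33.3, 34.5 and 43.1 FPKM in normal mice and 43.1, 45.4, 48.7 and 42.6 FPKM in HFD mice. Normal mouse 4 equalled HFD mouse 1 and lay above HFD mouse 4. The log2 fold change was 0.26 ± 0.08 (SE) with an adjusted p of 0.036 in limma, and the call was lost without any of 5 single mice (normal 2 and 3 and HFD 1, 2 and 3), with adjusted p up to 0.0925.

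The remaining delta2 genes did not pass the test. Pcdh17, a synaptic protein known from corticobasal circuits, was measured at 10.6, 11.5, 11.3 and 11.6 FPKM in normal mice and 10.2, 11.2, 10.9 and 9.9 FPKM in HFD mice (log2 fold change -0.09 ± 0.06, SE; adjusted p 0.247 in limma). Pcdh18, which binds the adaptor Dab1, was the least abundant nonclustered gene at 1.7, 1.9, 2.1 and 2.3 FPKM in normal mice and 1.5, 1.9, 1.7 and 1.8 FPKM in HFD mice (log2 fold change -0.20 ± 0.13, SE; adjusted p 0.26 in limma). Both diets overlapped for each gene.

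**Figure D2:**
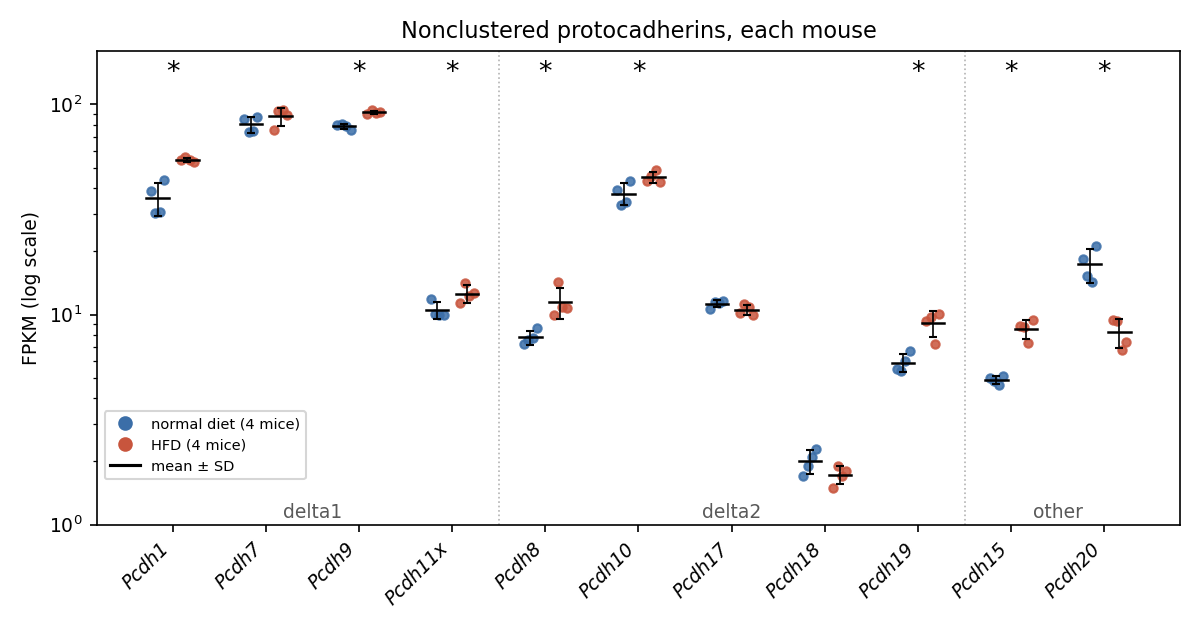
FPKM of the 11 nonclustered protocadherins is plotted on a log axis for each mouse, with blue points for the 4 normal mice, red points for the 4 HFD mice, black lines for mean ± SD and stars for an adjusted p below 0.05. The red points lie above the blue points for Pcdh1, Pcdh9, Pcdh8, Pcdh19 and Pcdh15 and below them for Pcdh20.

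The gamma cluster (chromosome 18, from 37661793 to 37841873 over the members measured) had the most calls of the clusters, with 5 of 21 genes higher (23.8%) and none lower. This share was below the 33.1% called over all genes tested and the 26.0% over mRNAs under 10 FPKM. All but 3 of the gamma members had a positive log2 fold change, compared with 7068 of the 13982 genes tested, and the median was 0.15. Gamma genes share exons, so their signs are not independent. The called genes were 4 of the 12 A-type genes and 1 of the 6 B-type genes, and none of the 3 C-type genes. Each of these is one alternative first exon of the cluster, so no separate function is given.

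Pcdhga2 had the largest change of the clusters. It was measured at 3.4, 3.3, 3.2 and 3.7 FPKM in normal mice and 4.7, 4.5, 5.9 and 4.8 FPKM in HFD mice, with HFD mouse 3 highest and no overlap. Its log2 fold change was 0.53 ± 0.10 (SE) with an adjusted p of 0.00402 in limma. Pcdhga11, the most abundant gamma gene outside the C-type, was measured at 5.7, 5.7, 6.3 and 6.9 FPKM in normal mice and 8.8, 7.6, 8.5 and 8.4 FPKM in HFD mice. Its HFD mice were all above its normal mice, with a log2 fold change of 0.43 ± 0.08 (SE) and an adjusted p of 0.00397 in limma.

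Pcdhgb7 was measured at 2.8, 2.4, 3.4 and 3.2 FPKM in normal mice and 4.2, 4.1, 4.5 and 3.8 FPKM in HFD mice. Pcdhga9 was measured at 2.7, 3.2, 3.6 and 3.1 FPKM in normal mice and 4.0, 4.5, 4.7 and 4.3 FPKM in HFD mice. Neither gene overlapped between the diets, and the lowest HFD mouse was 0.4 FPKM above the highest normal mouse in both. On the log2 scale the fold change was 0.49 ± 0.12 (SE; adjusted p 0.0113) for Pcdhgb7 and 0.47 ± 0.10 (SE; adjusted p 0.00752) for Pcdhga9 in limma. Pcdhga8 was measured at 4.9, 4.2, 4.2 and 4.4 FPKM in normal mice and 5.0, 5.2, 6.2 and 5.5 FPKM in HFD mice, with 0.1 FPKM between the nearest mice of the diets. Its log2 fold change was 0.30 ± 0.09 (SE; adjusted p 0.0273), and the call was lost without any of 4 single mice (normal 2 and 3 and HFD 3 and 4), with adjusted p up to 0.0699.

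The 16 other gamma genes had log2 fold changes from -0.12 to 0.31 and adjusted p from 0.0895 to 0.906. By level, the C-type genes Pcdhgc5 and Pcdhgc3 stood above all other gamma genes, while Pcdhgc4 lay within their range. Pcdhgc5, a partner of GABA-A receptors, was the most abundant clustered gene at 51.4, 35.8, 39.5 and 53.8 FPKM in normal mice and 51.4, 56.2, 57.7 and 53.2 FPKM in HFD mice. Normal mice 2 and 3 stood far below the HFD mice and the other normal mice lay among them, and the log2 fold change was 0.29 ± 0.12 (SE; adjusted p 0.0895 in limma). Without normal mouse 4 it passed, at 0.39 (adjusted p 0.0281). Pcdhgc3, known to bind Axin1 and to promote dendrite branching, went the other way in the same 2 mice, at 19.9, 24.8, 25.4 and 19.9 FPKM in normal mice and 20.1, 22.3, 22.4 and 18.0 FPKM in HFD mice (log2 fold change -0.12 ± 0.10, SE; adjusted p 0.41). Pcdhgc4, the gamma gene that interneurons need for survival, was measured at 4.5, 5.6, 5.1 and 4.4 FPKM in normal mice and 4.9, 4.9, 5.6 and 5.4 FPKM in HFD mice, with a log2 fold change of 0.09 ± 0.09 (SE; adjusted p 0.489).

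Beside these changes, the summed markers of cortical projection neurons were higher in all HFD mice than in any normal mouse. The summed markers of astrocytes (4 of 4 measured) were lower, at 267.8 to 339.8 FPKM in normal mice and 237.5 to 262.7 FPKM in HFD mice. These astrocyte genes did not move together. Aqp4 was lower in every HFD mouse (31.5 to 50.9 FPKM in normal and 19.3 to 23.7 FPKM in HFD mice). Slc1a3 overlapped between the diets, and Aldh1l1 was 25.3 to 27.8 FPKM in normal and 27.6 to 28.4 FPKM in HFD mice. The part of both marker lists in the gamma and nonclustered changes was not tested.

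In the alpha cluster (chromosome 18, 36939205 to 37187661), 1 of 12 genes changed (8.33%, against 33.1% of all genes tested). It is named Pcdha11 in the deposited values, a name that M21 also gives to the gene listed as Pcdha10 there, and both were told apart by gene ID. Pcdha11 was measured at 1.9, 1.4, 1.7 and 1.8 FPKM in normal mice and 2.4, 2.4, 2.1 and 2.4 FPKM in HFD mice, without overlap. The log2 fold change was 0.44 ± 0.12 (SE; adjusted p 0.022 in limma). The call was lost without any of 4 single mice (normal 2 and HFD 1, 2 and 4), with adjusted p up to 0.0598. The most abundant alpha gene was the C-type gene Pcdhac2, needed for the spacing of serotonergic axons, at 13.8, 12.6, 13.4 and 14.2 FPKM in normal mice and 14.1, 15.2, 15.7 and 13.9 FPKM in HFD mice. Its diets overlapped, with a log2 fold change of 0.12 ± 0.06 (SE; adjusted p 0.137). The other C-type gene, Pcdhac1, was at 2.1 to 2.3 FPKM in normal mice and 2.3 to 2.4 FPKM in HFD mice (log2 fold change 0.12 ± 0.09, SE; adjusted p 0.307). The 11 alpha genes that were not called had log2 fold changes from -0.16 to 0.41. Pcdha1 and Pcdha8 were not analysed here.

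In the beta cluster (chromosome 18, 37294812 to 37524479), 2 of 20 genes changed (10%, against 33.1% of all genes tested), with a gene in each direction. The median log2 fold change of the beta genes was 0.01. Pcdhb10 was measured at 3.2, 2.6, 2.7 and 3.4 FPKM in normal mice and 2.1, 2.5, 1.9 and 2.2 FPKM in HFD mice. Pcdhb2 was measured at 1.1, 0.9, 1.0 and 1.4 FPKM in normal mice and 1.5, 1.5, 1.6 and 1.6 FPKM in HFD mice. In both genes only 0.1 FPKM, the rounding step of the values, separated the diets. Pcdhb10 had a log2 fold change of -0.43 ± 0.12 (SE; adjusted p 0.0247), and the call was lost without any of 4 single mice (normal 1 and 4 and HFD 1 and 3), with adjusted p up to 0.0603. Pcdhb2 had a log2 fold change of 0.48 ± 0.15 (SE; adjusted p 0.0384), and the call was lost without any single mouse but normal mouse 4, with adjusted p up to 0.0968.

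The most abundant beta gene, Pcdhb17, was measured at 6.8, 5.6, 5.9 and 6.3 FPKM in normal mice and 5.9, 6.1, 5.5 and 5.8 FPKM in HFD mice (log2 fold change -0.07 ± 0.07, SE; adjusted p 0.468). The diets overlapped. Among the 18 beta genes that were not called, the adjusted p ran from 0.0561 to 0.805. Pcdhb4 passed without HFD mouse 4 (adjusted p 0.0495) and Pcdhb22 passed without normal mouse 2 (adjusted p 0.0243). Pcdhb1 and Pcdhb6 were not analysed here.

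In all, 10 of the 16 calls held without each of the 8 mice in turn. They were Pcdh15, Pcdh20, Pcdh1, Pcdh9, Pcdh19 and Pcdh8 of the nonclustered genes and Pcdhga2, Pcdhga11, Pcdhga9 and Pcdhgb7 of the gamma cluster.

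**Figure D3:**
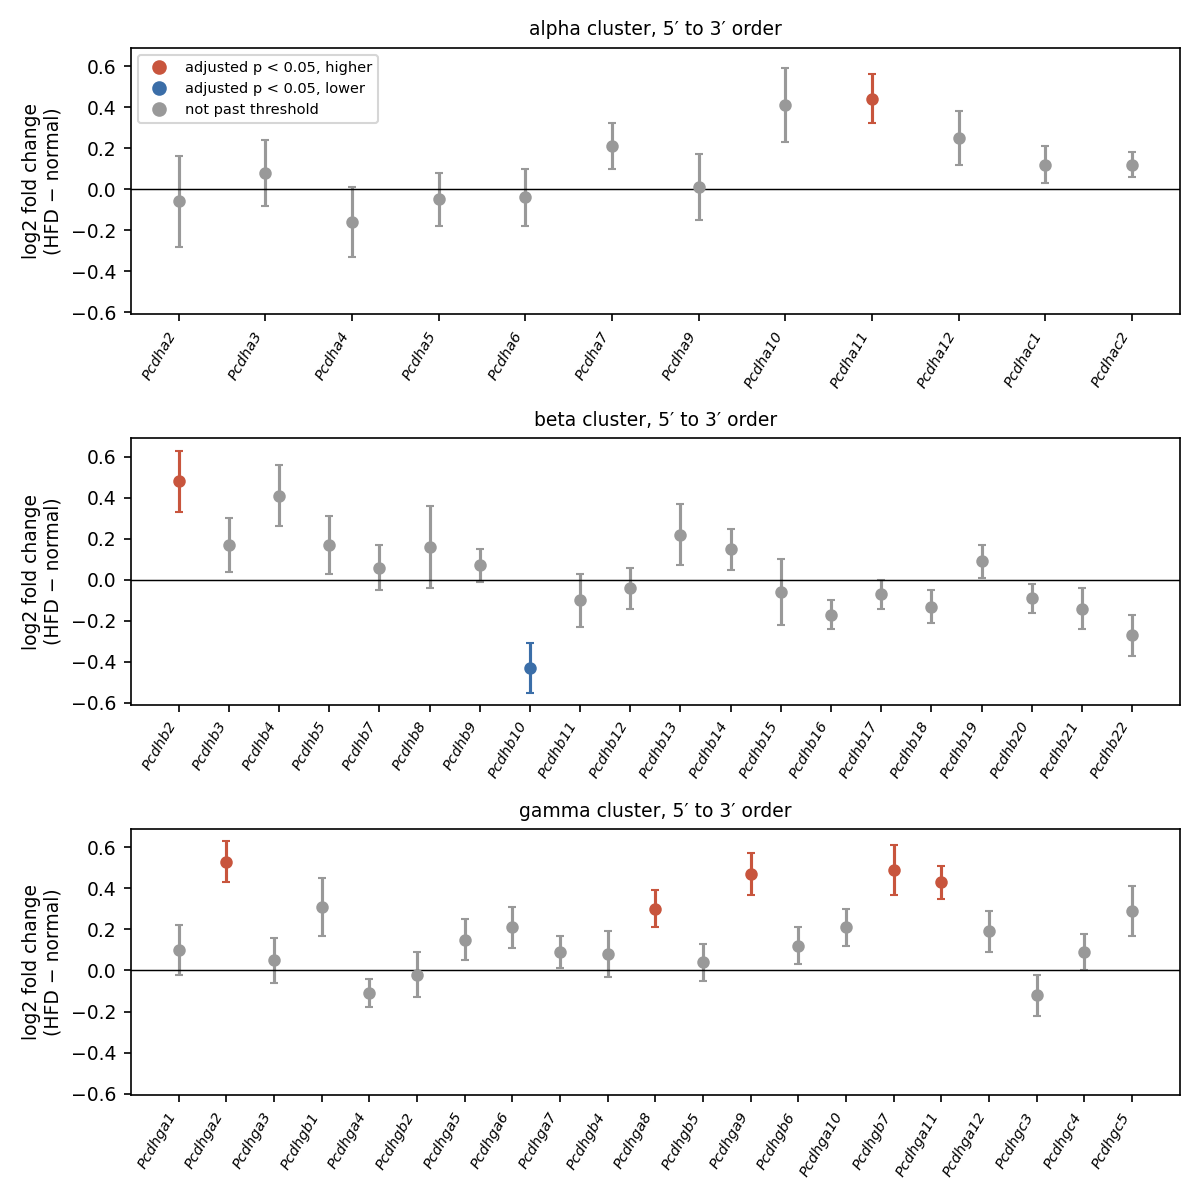
The log2 fold change (HFD minus normal) of each clustered protocadherin is plotted as a point with its SE, in the 5′ to 3′ order of the genes in each cluster. Red and blue points have an adjusted p below 0.05 and are higher or lower in HFD mice, and grey points do not. Beta genes up to Pcdhb9 are all above 0 and most later ones below it, and red points are scattered along the gamma cluster.

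Position within a cluster was compared with the change, as a description chosen after the values had been seen. From Pcdhb2 to Pcdhb9 all 7 beta genes had a positive log2 fold change, from 0.06 to 0.48, and only Pcdhb2 was called. From Pcdhb10 to Pcdhb22, 3 genes were positive and 10 negative, from -0.43 to 0.22. Over the 20 beta genes, Spearman's rho of the order with the log2 fold change was -0.68. Later genes also had higher levels (rho of 0.64), and levels and changes were related (rho of -0.67), so that order and level cannot be told apart. In the alpha cluster without the C-type, rho of order with change was 0.79 over 10 genes. Later alpha genes also had higher levels (rho of 0.7), while levels and changes had a rho of 0.27. In the gamma cluster without the C-type, rho of order with change was 0.28 over 18 genes. The genes of a cluster share their libraries and, in alpha and gamma, exons, so these values carry no test.

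Reads from constant exons set a limit on the alpha and gamma values. In the GENCODE M21 models, 48.6% to 54.9% of the exon bases of each alpha gene and 39.5% to 45.5% of those of each gamma gene also belonged to other members. The sources used here do not say how the reads there were divided between the genes. Of the beta genes, 18 of 20 shared no exon base with another member, while Pcdhb21 and Pcdhb22 overlapped each other. The nonclustered genes shared none. The libraries kept strand, but whether the FPKM calculation used it is not stated. Among the called genes, Pcdh20, Pcdhb2 and Pcdhb10 overlap no gene on the opposite strand in M21, and the others overlap at least 1.

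Sums over a whole cluster are less touched by this division. Sums over the A-, B- or C-type genes, and the shares of such genes in a cluster, still depend on it. The gamma sum was 149, 137, 146 and 155 FPKM in normal mice and 159, 169, 178 and 159 FPKM in HFD mice. The mean rose from 147 ± 7.57 to 166 ± 9.04 FPKM (SD, n = 4 each), 1.13 times, without overlap. The A-type genes went from 53.0 ± 1.9 to 61.8 ± 3.17 FPKM (SD), also without overlap. The C-type genes went from 72.5 ± 5.42 to 80.5 ± 4.74 FPKM and the B-type genes from 21.2 ± 1.35 to 23.9 ± 1.6 FPKM (SD), and both overlapped. Pcdhgc5 alone, which was not called, went from 45.1 ± 8.82 to 54.6 ± 2.85 FPKM (SD). The alpha sum was 34.1 ± 2.47 FPKM in normal mice and 37.2 ± 0.889 FPKM in HFD mice (SD), and the diets overlapped. The beta sum was 60.1 ± 3.92 and 58.8 ± 1.18 FPKM (SD) and overlapped as well.

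The nonclustered sum was 303, 275, 275 and 316 FPKM in normal mice and 323, 358, 346 and 338 FPKM in HFD mice, a ratio of 1.17 of the means without overlap. Most of it came from the delta1 genes, which went from 205 ± 12.3 to 247 ± 11.4 FPKM (SD), while the delta2 genes went from 64.5 ± 5.55 to 77.8 ± 3.89 FPKM (SD). Since FPKM is per length, these levels can be set side by side. In every mouse the 11 nonclustered genes summed to more than the 53 clustered genes together. The C-type genes made up 47.9% to 50.9% of the gamma sum and 43.8% to 47.8% of the alpha sum, with no separation of the diets. The share of Pcdhgc5 in the gamma sum was 26.2% and 27.0% in normal mice 2 and 3 and 32.3% to 34.7% in the other 6 mice.

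**Figure D4:**
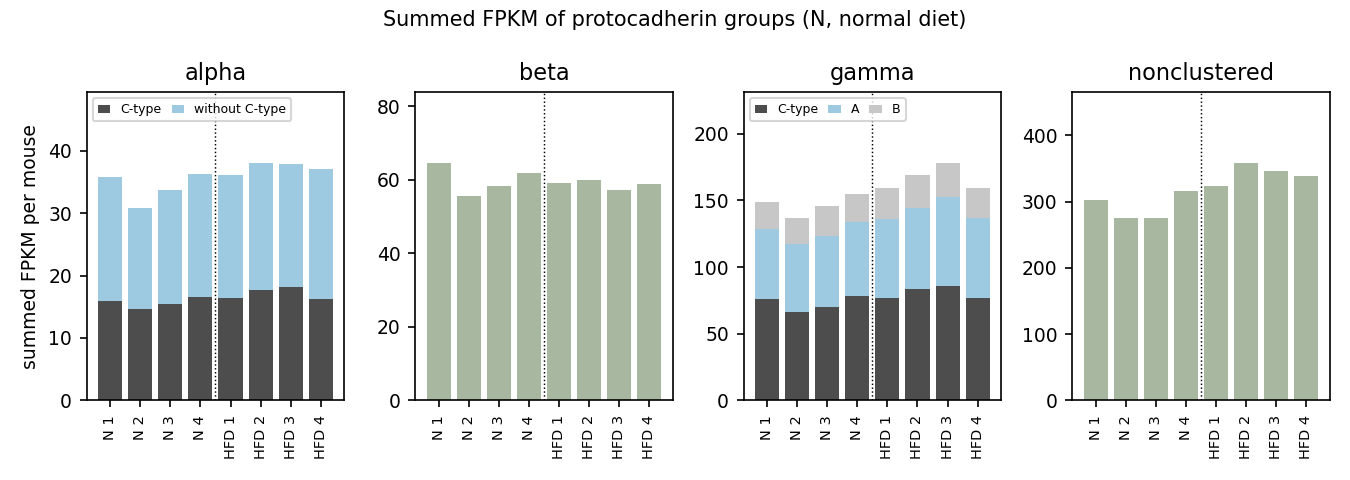
Bars show the summed FPKM of each protocadherin group in each mouse (N, normal diet), on an axis of its own for each panel that starts at 0, with the C-type, A and B genes stacked where a cluster has them. The gamma and nonclustered bars are all higher in HFD mice than in normal mice, and the alpha and beta bars overlap.

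Normal mice 2 and 3 held the highest cerebellar markers. Their summed cortical projection neuron markers were the lowest, at 328.5 and 309.7 FPKM, against 436.8 and 460.4 FPKM in normal mice 1 and 4. Their summed thalamic markers were the highest, at 105.1 and 93.1 FPKM, against 45.2 and 36.4 FPKM. Oligodendrocyte and astrocyte sums were also highest in these mice. Normal mice 2 and 3 stood apart for several members. They had the lowest levels of Pcdh1, Pcdh10, Pcdhgc5, Pcdh7 and Pcdh20 among normal mice and the highest levels of Pcdhgc3. Without both mice, the log2 fold change of Pcdh1 moved from 0.62 to 0.40 (adjusted p 0.00586 in limma) and that of Pcdh20 from -1.06 to -1.27 (adjusted p 0.0031). That of Pcdh10 moved from 0.26 to 0.12 (adjusted p 0.23) and that of Pcdhgc5 from 0.29 to 0.05 (adjusted p 0.555). That of Pcdh7 moved from 0.13 to 0.02 (adjusted p 0.879), and Pcdhgc3 turned from -0.12 to 0.05.

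Without the same 2 mice the log2 fold change was 0.74 for Pcdh15, 0.24 for Pcdh9, 0.56 for Pcdh19 and 0.52 for Pcdh8 (adjusted p 0.0395), and these 4 calls held. Pcdh11x was lost at 0.21 (adjusted p 0.197), as were Pcdha11, Pcdhb2 and Pcdhga8, which left 11 of the 16 calls. This alternative was chosen after seeing the data.

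**Figure D5:**
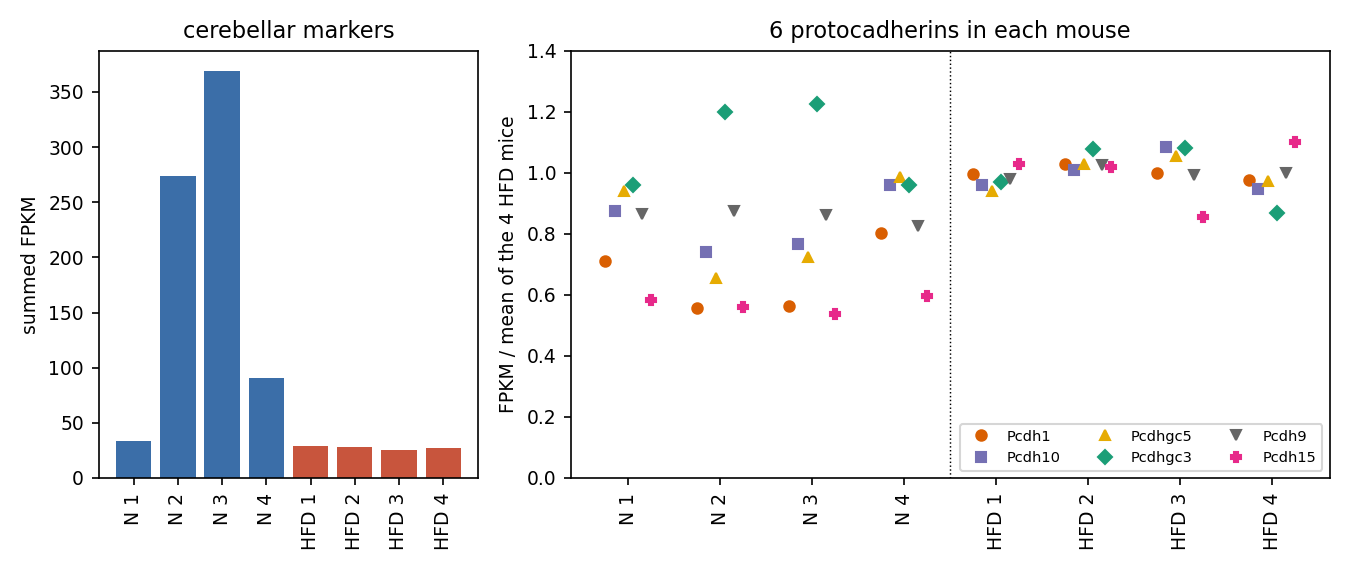
Bars on the left show the summed FPKM of 8 cerebellar markers in each mouse (N, normal diet; blue normal, red HFD), and symbols on the right show the FPKM of 6 protocadherins in each mouse divided by the mean of the 4 HFD mice. Normal mice 2 and 3 have the tallest bars, the lowest Pcdh1, Pcdh10 and Pcdhgc5 and the highest Pcdhgc3, and Pcdh9 and Pcdh15 vary little among normal mice.

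How members varied together among mice of the same diet was described by Pearson's r of the deviations from the diet means over the 8 mice, which share libraries and, within alpha and gamma, exons. Typical pairs were weakly related, with a median r of 0.18 within alpha (66 pairs), 0.25 within beta (190 pairs), 0.15 within gamma (210 pairs) and 0.22 among nonclustered genes (55 pairs). Between groups it was 0.23 for alpha with beta (240 pairs), as high as within groups, and -0.01 for beta with gamma (420 pairs). Pcdhgc5 had an r of 0.94 with Pcdh1 and 0.94 with Pcdh10, and Pcdh1 and Pcdh10 had 0.90. For Pcdhgc3 it was -0.62 with Pcdhgc5 and -0.69 with Pcdh1. Pcdh15 and Pcdh19 had 0.83. Among the named members, the most negative values were -0.94 for Pcdhga11 with Pcdh9, -0.89 for Pcdhgc4 with Pcdh20 and -0.88 for Pcdha11 with Pcdhgc4. Pcdhgc5, Pcdh1, Pcdh10 and Pcdhgc3 are members in which normal mice 2 and 3 stood apart.

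Genes that act on the choice of protocadherin promoters changed in 7 of 17 cases (41.2%), 2 higher and 5 lower. Their median log2 fold change was -0.05, and the share called over all genes tested was 33.1%. The subunits of cohesin, which holds chromatin loops at the clusters, did not move together. Smc1a, Smc3 and Stag2 fell by 0.31, 0.21 and 0.21 on the log2 scale (adjusted p 0.00866, 0.0199 and 0.0476 in limma), while Rad21 rose by 0.16 (adjusted p 0.0367) and Stag1 had a log2 fold change of -0.05 (adjusted p 0.607). Wapl, also called, fell by 0.21 (adjusted p 0.0177 in limma). Ctcf did not pass, with a log2 fold change of -0.16 (adjusted p 0.0588), and neither did Dnmt3a (-0.14, adjusted p 0.172) or Dnmt1 (0.08, adjusted p 0.24). Rad21, Stag1, Wapl, Ctcf, Dnmt3a and Dnmt1 are outside the naming rule and were added after their values were seen. Rest, a repressor of neuronal genes, fell by 0.37, from 2.00 ± 0.0816 to 1.52 ± 0.0957 FPKM (SD). Wiz, a partner of the G9a histone methyltransferase, rose by 0.70, from 3.23 ± 0.419 to 5.30 ± 0.548 FPKM (SD). Without normal mice 2 and 3, or without normal mouse 2 alone, the number called fell to 2, and without HFD mouse 1 to 3.

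Among 34 genes known as binding, processing or signalling partners of protocadherins, 14 changed (41.2%), 5 higher and 9 lower. Their median log2 fold change was -0.03, and the share called over all genes tested was 33.1%. Wasf1 and Cyfip2, subunits of the WAVE complex that Pcdh10 and Pcdh17 recruit, had log2 fold changes of 0.65 and 0.53 (adjusted p 0.00675 and 0.00349 in limma). Nckap1, the subunit bound by Pcdh10, fell by 0.19 (adjusted p 0.013). The remaining subunits on the list did not pass, with log2 fold changes of -0.14 for Abi1, -0.11 for Cyfip1, 0.04 for Brk1, 0.11 for Wasf3, 0.17 for Abi2 and 0.19 for Wasf2. These subunits were added after their values were seen. Nlgn2, a postsynaptic adhesion protein of inhibitory synapses, and Dab1, the adaptor bound by Pcdh18, had 0.63 and 0.54. Ppp1cc, a catalytic subunit of the phosphatase that Pcdh7 binds, fell by 0.33.

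Of the other cadherin genes, 29 of 44 were tested and 13 changed (44.8%), 8 higher and 5 lower, with a median of 0.03. Celsr2, a seven-pass cadherin of planar polarity, rose from 21 ± 3.25 to 34.1 ± 1.35 FPKM (SD), a log2 fold change of 0.71. Fat2 is a cerebellar granule cell gene and also one of the cerebellar markers above. It was measured at 0.5, 11.4, 15.3 and 3.0 FPKM in normal mice and 0.1 to 0.2 FPKM in HFD mice. Fat1 (-0.68), Cdh4 (-0.48) and Cdh9 (-0.41) were lower in HFD mice on the log2 scale. Fat1 was also highest in normal mice 2 and 3, at 17.1 and 20.5 FPKM, against 10.4 and 13 FPKM in the others. The shares called in the regulator, partner and other cadherin lists (41.2%, 41.2% and 44.8%) were above the 33.1% of all genes tested. Among mRNAs, 39.5% of those with a mean of 10 FPKM or more were called and 26.0% of those under it. The median levels of these lists were 16.9, 33.3 and 10.2 FPKM, with the lowest members at 1.76, 1.62 and 1.2 FPKM. No list was tested as a set, and the part of level in these shares was not tested. The number of other cadherins called fell to 8 without normal mouse 3, to 7 without HFD mouse 1 or 4 and to 6 without HFD mouse 2.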

How the data were processed

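Libraries of rRNA-depleted RNA from the cortexes of 4 normal and 4 HFD mice were sequenced by the authors. Per the study's methods, reads were trimmed with Trimmomatic and aligned to mm10 with STAR, and FPKM values were calculated by the authors with Cuffnorm on GENCODE M17 (GRCm38.p6). The sources used here name no tool versions. The deposited FPKM values are rounded to 0.1 and keep no read counts, so the depth is unknown and no counting intervals can be given. The authors left out genes with a mean FPKM under 1 or a 0.

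Log2(FPKM + 0.1) was compared with limma 3.58.1 in R 4.3.3 (variance trend, two-sided, Benjamini-Hochberg over 13982 genes). Fold changes on this scale understate those of low genes. Tables and figures were made with Python 3.11.15, pandas 2.3.3, numpy 2.4.6, scipy 1.17.1 and matplotlib 3.10.9. The fit was repeated with a constant of 1, with looser and stricter filters, after median-ratio or quantile scaling, without the variance trend, with a minimum change, with a replicate block and without single mice. Members were matched by gene ID to GENCODE M21, which held 64 of 64. The comparison was tested on simulated data over 13982 genes, where it found 62 of 100 changes of 1.5-fold and 92 of 100 of 2-fold and made 7 false calls. Members and lists were chosen with earlier results of these data known. Every member could be named, with values per mouse for those called, the nonclustered ones and the most abundant of each cluster, and up to 5 called genes per list, by largest change. Values for a few further clustered members (the C-type genes, Pcdhb4 and Pcdhb22) were added after their values were seen. Other lists summed marker genes of 12 cell types or regions. Ranges of marker sums not given above follow in FPKM, for normal and then HFD mice. They were 417.3 to 467.9 and 374.4 to 417.6 for interneurons and 36.4 to 105.1 and 28.0 to 38.8 for thalamus. For oligodendrocyte precursors they were 29.8 to 32.2 and 26.4 to 28.4, and for microglia 61.7 to 73.5 and 67.5 to 71.1. For endothelium they were 55.7 to 62.3 and 44.0 to 50.7, and for meninges and mural cells 27.7 to 38.1 and 28.3 to 42.8. The genes of a list did not always move together. Of the precursor genes, Gpr17 was lower in every HFD mouse (13.0 to 15.0 and 9.0 to 9.9). Cspg4 was higher (2.9 to 3.2 and 3.9 to 4.1), and Pdgfra overlapped. Of the interneuron genes, Vip and Lhx6 were higher and Gad1 and Gad2 lower in every HFD mouse, while Pvalb and Sst overlapped. Of the endothelial genes, Cldn5 and Slco1a4 were lower in every HFD mouse, while Pecam1, Flt1 and Cdh5 overlapped.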

Additional observations from a re-analysis of the deposited data

Results flagged for a closer look

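In 7 of 166 groups of 4 mice (4.22%), 1 mouse stood apart from the other 3 by more than Dixon's critical value for the gap over the range. Chance gives about 1 in 20 groups. Pcdh11x was 11.9 FPKM in normal mouse 1 and 9.9 to 10.1 FPKM in the other normal mice. Pcdhga1 was 2.4 FPKM in normal mouse 2 and 3.2 to 3.3 FPKM in the others. Pcdhb5 was 2.4 FPKM in normal mouse 1, compared with 1.7 to 1.8 FPKM, and Pcdhb8 was 1.9 FPKM in normal mouse 4, compared with 1.1 to 1.2 FPKM. Pcdhac1 was 2.3 FPKM in normal mouse 4 and 2.1 FPKM in the other 3. Pcdha11 was 2.1 FPKM in HFD mouse 3 and 2.4 FPKM in the other HFD mice. The last 2 gaps are of a few rounding steps of 0.1 FPKM. Among the other cadherins, Celsr2 was 36.1 FPKM in HFD mouse 3 and 33.3 to 33.5 FPKM in the other HFD mice.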

How the results depend on the processing

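An added constant of 1, no filter and median-ratio rescaling kept the same 16 calls among the protocadherins. Quantile normalization kept 15 (beta cluster 1), and without the variance trend 15 were called, 14 of them shared. Leaving out single mice, the counts ranged from 9 to 14 for members higher, 1 to 3 for members lower, 0 to 1 for alpha, 0 to 2 for beta, 4 to 6 for gamma, 6 to 8 for nonclustered genes, 2 to 6 for regulators, 12 to 14 for partners and 6 to 10 for other cadherins, of 14, 2, 1, 2, 5, 8, 7, 14 and 13 with all mice. Without normal mouse 2 the members higher were 9. The members lower were 1 without normal mouse 1 or 4 or HFD mouse 1 or 3. The difference in the beta sum (HFD minus normal) ranged from -2.74 to 0.225 FPKM and turned positive without normal mouse 1.

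Without normal mice 2 and 3 (chosen after seeing the data), 9 members were higher, alpha had 0 calls, beta 1, regulators 2 and other cadherins 8. Pcdhgc3 turned to 0.05, the alpha sum differed by 1.25 FPKM and the beta sum by -4.38 FPKM. With a mean of at least 5 FPKM only 20 members were tested, which left 8 higher, 1 lower, 0 in alpha, 0 in beta and 1 in gamma. A minimum change of 50% left 3 higher, 1 lower, 0 in alpha, beta and gamma, 4 nonclustered genes, 1 regulator, 2 partners and 3 other cadherins.

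The replicate numbers did not pair the mice (r of the deviations from -0.109 to -0.0275, with 0 of 4 mice closest to their own number). With the replicate block, 9 members were higher and 1 lower, with 0 in alpha, 0 in beta, 2 regulators and 6 other cadherins. These 10 members were the ones that held without each mouse.

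FPKM rounded to 0.1 limits genes near 1 FPKM, and the missing counts leave the depth unknown. At 4 mice per diet, the simulation over all genes recovered 62 of 100 changes of 1.5-fold. It changed far fewer genes (100 of each size among 13982) than were called in the data (4626). The adjustment of p was therefore stricter there, and the recovered share does not give the power of the real comparison. Smaller changes were not simulated, and the 48 members that were not called are not shown to be unchanged. The cause of the lost calls was not tested.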
